A study of Mus musculus with 18 samples.

Results

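Of the 18 whole mouse embryos of an allelic series of Tbx1, 12 were compared, each at embryonic day 9.5 and each on its own Affymetrix mouse genome expression array. The 12 embryos form 3 pairs of genotypes, in which a Neo allele on one side stands where a null allele (-) stands on the other and the partner allele is matched. Neo/+ was set against +/-, which share a wild-type allele. Neo2/Neo was set against Neo2/-, which share a Neo2 allele. Neo/Neo was set against -/-, where both alleles were exchanged. Each genotype had 2 embryos, so 6 embryos carried Neo and 6 carried the null allele, and the other 6 embryos (WT, Neo2/+ and Neo2/Neo2, 2 each) carried neither. All 9 genotypes had a mixed background of 129SvEv and C57Bl/6, per the labels, and the labels describe the alleles as germline alleles made in earlier studies. The allele and whatever else its breeding line carries cannot be told apart in these embryos.

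The protein TBX1 belongs to the T-box transcription factors and acts in pharyngeal endoderm, cranial mesoderm, second heart field and otic vesicle, and its loss in the mouse disrupts the pharyngeal arches and the cardiac outflow tract. Neo and Neo2 are hypomorphic alleles, which lower the dose of Tbx1, whereas the null allele makes no functional protein. The comparison asks in which transcripts an embryo with Neo differs from an embryo with the null allele when the rest of the genotype is held equal. Values are log2 signals per probe set, and every difference is Neo minus null on the log2 scale, so that a positive value means a higher signal in the Neo embryos.

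The array medians lay between 5.73 and 5.94. The first replicates of +/- and of -/- lay away from the rest, with a median correlation to the other arrays of 0.975 and 0.985, against 0.991 to 0.995 for the other 16. Both are null arrays, and the counts and the leading differences are also given without them. By sex-linked genes the 6 Neo embryos were 2 females and 4 males and the 6 null embryos 4 females and 2 males. The Neo/Neo pair held males alone and the -/- pair females alone, while the other 4 genotypes of the comparison had 1 of each, so sex and allele cannot be told apart in the pair of homozygotes. In whole embryos, fewer cells of a type and less RNA per cell cannot be told apart. The labels call the 2 embryos of a genotype biological replicates.

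The Tbx1 signal did not separate the Neo from the null embryos. It was 6.35 and 6.24 in Neo/+ and 6.61 and 6.13 in +/-, 5.65 and 5.67 in Neo2/Neo and 5.62 and 5.80 in Neo2/-, and 5.04 and 5.20 in Neo/Neo and 4.98 and 5.16 in -/-. In each pair the 2 Neo values lay among or beside the 2 null values, and the signal followed the partner. WT, Neo2/+ and Neo2/Neo2 embryos lay between 6.50 and 6.63. The difference was -0.02 with a standard error (SE) of 0.08 and an adjusted p of 0.933 (limma, Benjamini-Hochberg over 45037 probe sets). The probe set reports transcript and not protein. Which part of the transcript it reads was not used here, and a null allele can still be transcribed.

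None of the genes measured beside Tbx1 on chromosome 16 was called. Of the 40 genes measured within 20 places on either side of Tbx1, 0 were called, with a median difference of -0.0401. Of the 200 within 100 places 0 were called, with a median of -0.0276, against -0.0166 over all 18193 genes. Of the 18027 genes placed on chromosomes 0.405% were called, so a count of 0 does not set the genes near Tbx1 apart. An unadjusted p under 0.05 was found for 3 of the 40 and 20 of the 200, where 11.1% of all genes had one (limma). The differences of the 40 ran from -0.235 to 0.62. The highest were those of Ap2m1, a subunit of the clathrin adaptor AP-2, with an adjusted p of 0.578, and Ranbp1, a partner of the GTPase Ran, at 0.41 with an adjusted p of 0.742. Without the 2 distant arrays Ap2m1 differed by 0.20 and Ranbp1 by -0.07. Of the nearest genes, Gp1bb, which encodes a platelet glycoprotein, differed by -0.05, Txnrd2, the mitochondrial thioredoxin reductase, by -0.07, Cldn5, a tight junction protein of endothelium, by -0.07 and Gnb1l by -0.24 with an adjusted p of 0.213. Gnb1l, which encodes a WD-repeat protein, had the smallest p of the 40, and its 6 Neo values of 6.34 to 6.91 overlapped the 6 null values of 6.78 to 7.07. Without the 2 distant arrays the median of the 40 genes was -0.046.

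Away from Tbx1, 97 of 45037 probe sets were called at an adjusted p under 0.05, which is 0.215% of those tested, in a limma fit with the partner and the allele as terms. Of these, 26 were higher and 71 lower in the Neo embryos. An unadjusted p under 0.05 was found for 4886. The 97 called probe sets had a median absolute difference of 0.793, between 0.363 and 4.47, against 0.0829 over all probe sets. Of the 97, 83 carried a single gene symbol and stood for 73 genes, 17 higher and 56 lower, 4 matched several genes and 10 had no gene name here. The groups of 6 did not overlap at 72 of the 97, where 0.953% of all probe sets did so. At 25 of the 97 the 6 Neo embryos lay beyond all 12 others, where 0.171% of all probe sets did so. Those counts describe probe sets that the same values selected.

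**Figure D1:**
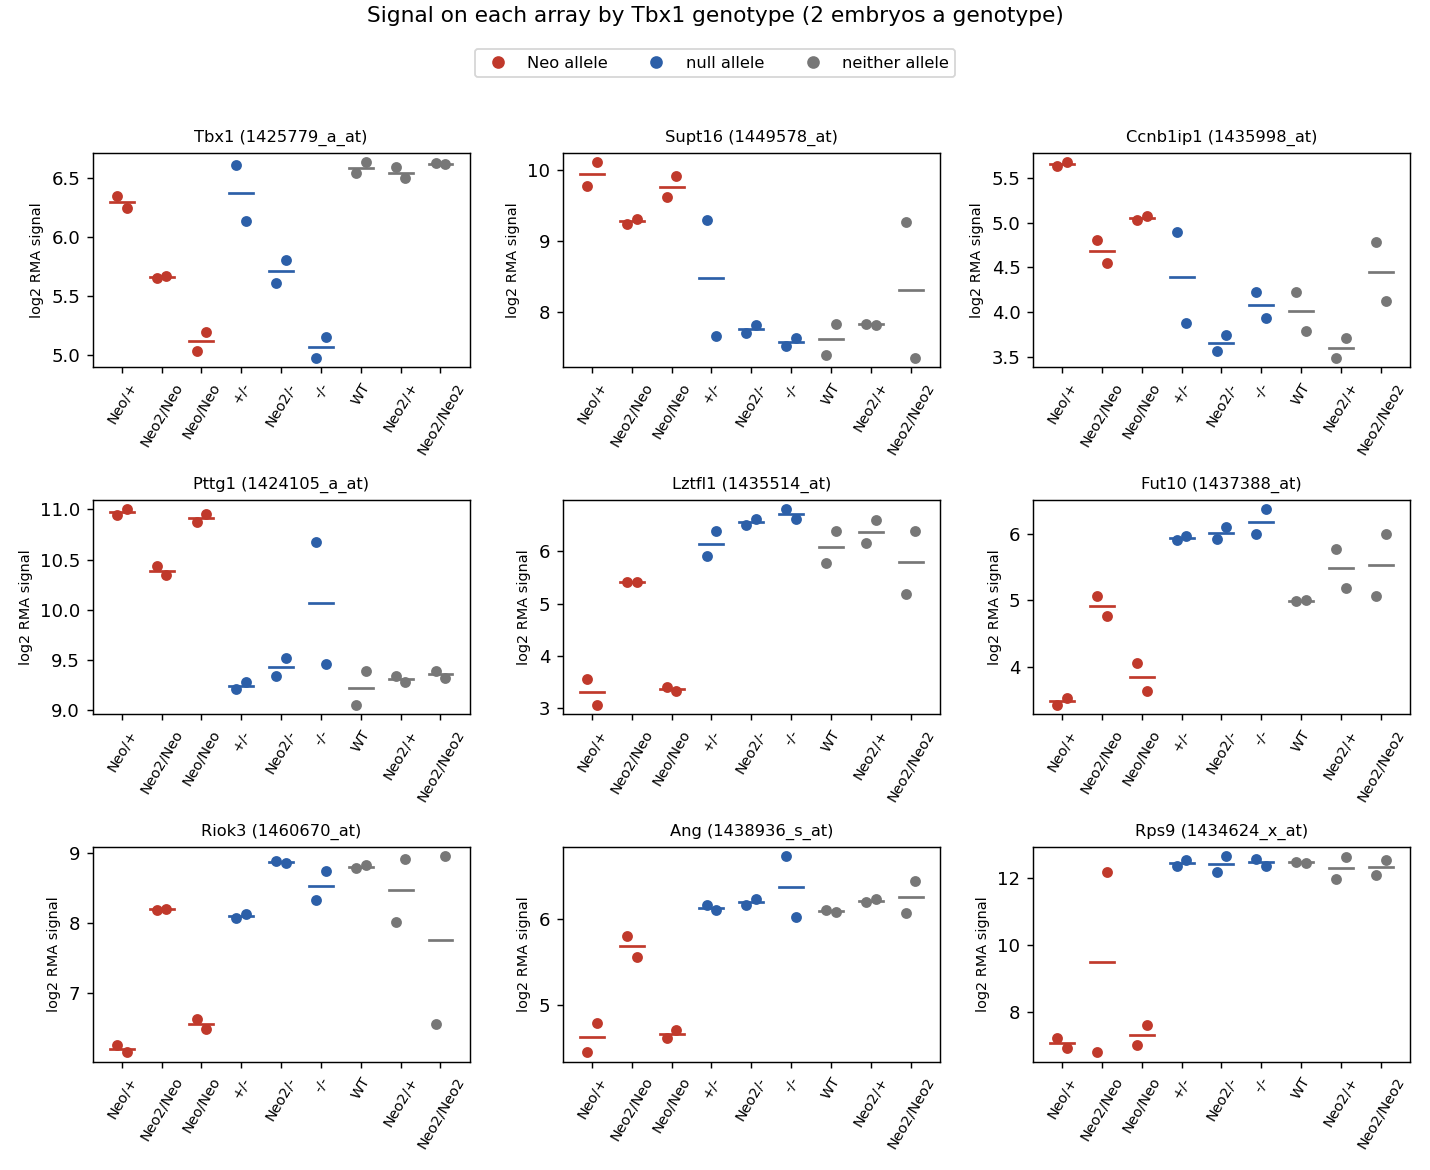
Log2 signal (y axes) of Tbx1 and of 8 genes called between Neo and null embryos, by genotype (x axes), with 1 point per array, 2 arrays a genotype and a line at each genotype's mean. Tbx1 differs by partner on both sides, whereas Lztfl1 lies at 3.07 to 3.56 in Neo/+ and Neo/Neo, near 5.4 in Neo2/Neo and at 5.90 or above in the null embryos.

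Among the genes higher in Neo embryos, Supt16 had the largest difference. It encodes the large subunit of FACT, a histone chaperone that opens nucleosomes for polymerases. Its signal was 9.76 and 10.10 in Neo/+, 9.24 and 9.31 in Neo2/Neo and 9.61 and 9.91 in Neo/Neo. In +/- it was 9.29 and 7.66, in Neo2/- 7.70 and 7.81 and in -/- 7.52 and 7.64. A single null array, +/- replicate 1, reached the Neo range, and among the embryos with neither allele Neo2/Neo2 replicate 1 did so too, at 9.27, while the other 5 lay between 7.36 and 7.83. The difference was 1.72 with an SE of 0.23, a 3.29-fold higher signal, with an adjusted p of 0.025, and it was 1.91 with an adjusted p of 0.00228 without the 2 distant arrays. The brighter probe set of Supt16 differed by 1.54 with an SE of 0.15 and an adjusted p of 0.0117, and there the 6 Neo values of 11.21 to 12.17 lay above all 6 null values, 9.95 to 10.80.

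Supt16 lies on chromosome 14 in a stretch with Ccnb1ip1 and Ttc5, which were also higher, and with Ang, which was lower. Ccnb1ip1 encodes a RING protein known for its role in meiotic crossing over. Its signal was 5.63 and 5.67 in Neo/+, 4.81 and 4.55 in Neo2/Neo and 5.03 and 5.08 in Neo/Neo, against 4.89 and 3.88 in +/-, 3.57 and 3.75 in Neo2/- and 4.23 and 3.94 in -/-. The difference was 1.09 with an SE of 0.15 and an adjusted p of 0.025. Its only probe set was dim. All these values lay below the lowest array median, 5.73, and the probe set was left out where the dimmest were. Ttc5, a tetratricopeptide protein that acts in stress responses with p53, was higher by 0.49 with an SE of 0.08 and an adjusted p of 0.0366. The other, dimmer probe set of Ttc5 differed by -0.0135 and was not called. Of the embryos outside the Neo genotypes, the 2 that were high at Supt16 were also the highest at Ccnb1ip1, while at Ttc5 they barely passed the others. Ccnb1ip1 was at 4.89 in +/- replicate 1 and 4.78 in Neo2/Neo2 replicate 1, against at most 4.23 in the other 10 non-Neo arrays, and Ttc5 was at 9.21 and 9.28, against at most 9.19.

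Ang, which encodes the secreted ribonuclease angiogenin, was 4.45 and 4.79 in Neo/+, 5.80 and 5.56 in Neo2/Neo and 4.61 and 4.70 in Neo/Neo. It was 6.16 and 6.10 in +/-, 6.16 and 6.23 in Neo2/- and 6.73 and 6.02 in -/-. All 6 Neo values were below all 12 others, with a difference of -1.25, an SE of 0.19 and an adjusted p of 0.0297. The +/- and Neo2/Neo2 arrays that were high at Supt16 were at 6.16 and 6.07 here, among the other non-Neo values. Rnase4, the ribonuclease gene that shares a transcription start with Ang, did not follow it. It was 6.69 to 7.25 in the Neo embryos and 5.93 to 6.90 in the null embryos, a difference of 0.58 with an SE of 0.15 that was not called (adjusted p of 0.18, and 0.0441 without the 2 distant arrays). The shared promoter window is shown with that of Supt16 because Supt16 and Ang lie in the same stretch of chromosome 14 and had differences of opposite sign. Both are RefSeq windows of 300 bases that span the gene's start in mouse build GRCm38.p6, printed 5′ to 3′ along the gene's strand, with GC boxes (GGGCGG or its reverse complement) and CCAAT boxes (CCAAT or its reverse complement) in capitals. The Supt16 window is chr14:52197190-52197489 on the minus strand and the other chr14:51090827-51091126 on the plus strand. Rnase4 also has a separate window of its own, chr14:51095750-51096049, which is not shown.

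Supt16: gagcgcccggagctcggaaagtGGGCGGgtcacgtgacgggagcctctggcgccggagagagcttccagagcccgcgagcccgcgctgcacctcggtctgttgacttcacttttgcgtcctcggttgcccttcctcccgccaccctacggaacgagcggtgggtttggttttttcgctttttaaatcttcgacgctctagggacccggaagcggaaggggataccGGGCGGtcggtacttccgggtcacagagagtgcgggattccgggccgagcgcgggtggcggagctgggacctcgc
Ang and Rnase4: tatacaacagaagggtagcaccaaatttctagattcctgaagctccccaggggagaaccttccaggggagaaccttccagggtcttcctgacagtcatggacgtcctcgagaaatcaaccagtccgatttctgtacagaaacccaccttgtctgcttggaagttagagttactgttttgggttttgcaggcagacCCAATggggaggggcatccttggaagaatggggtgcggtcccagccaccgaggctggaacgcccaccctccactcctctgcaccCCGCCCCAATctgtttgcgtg

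The Supt16 window held 35 CpG dinucleotides and 2 GC boxes, and the window of Ang and Rnase4 held 8 CpG dinucleotides, 2 CCAAT boxes and 1 GC box, which overlaps one of the CCAAT boxes. Neither held the T-box site searched for (AGGTGTGA, either strand). Of the 73 called genes, 46 had a window, and 0 of the 46 held that site, where 1.06% of the 14367 windows of measured genes did. A CCAAT box was in 47.8% of the 46 and 38.2% of the 14367, a GC box in 58.7% and 54.1%, and a TATA box (TATAAA, either strand) in 2.17%, which is 1 window, and 9.86%. These are matches of letters only.

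Pttg1, which encodes securin, the inhibitor of the protease that separates sister chromatids, was 10.9 and 11 in Neo/+, 10.43 and 10.35 in Neo2/Neo and 10.88 and 10.95 in Neo/Neo. It was 9.20 and 9.28 in +/-, 9.34 and 9.52 in Neo2/- and 10.68 and 9.46 in -/-. The embryos with neither allele lay at 9.05 to 9.39, so -/- replicate 1 was the single array outside the Neo genotypes in the Neo range. The difference was 1.18 with an SE of 0.20 and an adjusted p of 0.045, and 1.31 with an adjusted p of 0.0054 without the 2 distant arrays. The brightest probe set of Pttg1 gave 1.07, with an SE of 0.16 and an adjusted p of 0.0279.

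Mapk8, the stress kinase JNK1, was higher by 1.35 with an SE of 0.23 and an adjusted p of 0.0463 on a probe set that was not its brightest. Its values were 7.27 to 8.26 in the Neo embryos, 6.12 to 7.18 in the null embryos and 5.86 to 6.31 in those with neither allele. None of its 4 other probe sets was called, with differences between -0.267 and 0.362, and the brightest gave -0.17. Npas3, a bHLH-PAS transcription factor of the nervous system, was higher by 1.10, with an SE of 0.15 and an adjusted p of 0.022. Its 3 other probe sets had the same sign and were not called. Of the other genes with the largest positive differences, Anxa4, a calcium-dependent membrane-binding protein, differed by 0.82, Brd8, a bromodomain protein of an acetyltransferase complex, by 0.77 and Elk3, an ETS-domain factor, by 0.76. Hspb6, a small heat shock protein, differed by 0.58, Zfp983 by 0.54, Laptm4b, a protein of lysosomal membranes, by 0.53 and the glycosidase gene Myorg by 0.52. The RIKEN genes 6820431F20Rik and 2610005L07Rik, which are next to each other among the measured genes of chromosome 8, differed by 0.97 and 0.79. These 9 genes had adjusted p between 0.025 and 0.045, and of the 9 only Laptm4b had overlapping groups. For 4 of them the brightest probe set was not called, and it differed by 0.21 for Anxa4, 0.12 for Brd8, 0.19 for Elk3 and 0.13 for Zfp983, so the values above are those of a dimmer probe set.

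The lower genes had larger differences. Lztfl1, a regulator of the BBSome complex that carries membrane proteins in cilia, was 3.56 and 3.07 in Neo/+, 5.41 and 5.42 in Neo2/Neo and 3.42 and 3.33 in Neo/Neo. It was 5.90 and 6.38 in +/-, 6.50 and 6.61 in Neo2/- and 6.80 and 6.61 in -/-, and 5.18 to 6.59 in the embryos with neither allele. The Neo embryos thus had 2 levels, a low one in Neo/+ and Neo/Neo and one closer to the null embryos in Neo2/Neo. The difference was -2.43 with an SE of 0.30, a 5.4-fold lower signal, with an adjusted p of 0.0172, and it was -2.29 with an adjusted p of 0.0246 without the 2 distant arrays. A further probe set of Lztfl1 was called, at -0.86, and the brightest differed by -0.17 and was not. The promoter window of Lztfl1 (chr9:123717576-123717875, minus strand, GRCm38.p6) is shown because this gene led the lower genes in both pairs without Neo2, and it held 4 CCAAT boxes and 1 GC box, in capitals.

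Lztfl1: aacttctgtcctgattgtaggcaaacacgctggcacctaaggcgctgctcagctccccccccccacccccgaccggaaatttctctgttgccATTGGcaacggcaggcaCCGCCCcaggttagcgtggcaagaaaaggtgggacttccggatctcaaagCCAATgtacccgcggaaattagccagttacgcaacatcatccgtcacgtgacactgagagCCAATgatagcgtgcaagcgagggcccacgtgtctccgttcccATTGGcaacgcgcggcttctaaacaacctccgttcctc

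Fut10, which encodes a protein of the fucosyltransferase family, had the same 2 levels. It was 3.43 and 3.53 in Neo/+ and 4.05 and 3.64 in Neo/Neo, 5.06 and 4.76 in Neo2/Neo, and 5.92 to 6.37 in the 6 null embryos. The difference was -1.96 with an SE of 0.21 and an adjusted p of 0.0125. Its brightest probe set was also called, at -1.05. WT embryos were at 4.99 and 5.0, which is the level of Neo2/Neo and below all null embryos. Mtmr7, a phosphatase of inositol lipids, was at 3.79 to 4.03 in Neo/+ and Neo/Neo, 5.89 and 5.69 in Neo2/Neo and 6.03 to 7.12 in the null embryos, a difference of -2.23 with an SE of 0.32 and an adjusted p of 0.0273. Its other and brighter probe set differed by -0.415 and was not called (adjusted p of 0.0905).

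Riok3, a RIO-family kinase linked to ribosome maturation, was 6.25 and 6.16 in Neo/+, 8.19 and 8.20 in Neo2/Neo and 6.62 and 6.48 in Neo/Neo. It was 8.06 and 8.12 in +/-, 8.88 and 8.85 in Neo2/- and 8.32 and 8.74 in -/-. The Neo2/Neo embryos here lay at the level of the +/- embryos. The difference was -1.51 with an SE of 0.19 and an adjusted p of 0.0177. Esco1, which acetylates cohesin, and Kif5b, the heavy chain of the motor kinesin-1, lie in the same stretch of chromosome 18. Their leading probe sets were lower as well, at -1.32 with an adjusted p of 0.0255 and -1.13 with an adjusted p of 0.025. The other, dimmer probe set of Esco1 differed by 0.335, and the brightest of Riok3 and Kif5b by 0.406 and 0.0632, none of them called. Neo2/Neo2 replicate 1, which carries no Neo allele, was low at each of the 3, with 6.55 at Riok3, 6.94 at Esco1 and 8.93 at Kif5b. Neo2/Neo2 replicate 2 was at 8.94, 8.49 and 10.28.

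Rps9, a protein of the small ribosomal subunit, had the largest difference of all called probe sets, -4.47 with an SE of 0.74 and an adjusted p of 0.0445. On this probe set 5 Neo embryos lay at 6.83 to 7.63, while Neo2/Neo replicate 2 was at 12.17, close to the null embryos at 12.19 to 12.64 and to those with neither allele at 11.98 to 12.63. The brightest probe set of Rps9 differed by 0.05 and the third by -0.28, neither called, so the low signal was seen on 1 of the 3. Its name carries the suffix that Affymetrix gave to sets with probes that also match other transcripts. Its adjusted p was 0.0587 without the 2 distant arrays.

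The remaining genes with the largest negative differences were lower in all 3 pairs. Cenpa, the histone H3 variant of centromeres, differed by -1.54 with an adjusted p of 0.0125, from 5.15 to 5.66 in the Neo embryos and 6.41 to 7.36 in the null embryos. Bub1, a kinase of the spindle checkpoint, differed by -1.53, Ndel1, a partner of the dynein motor, by -1.68, and Cep44, a protein of centrosomes, by -1.43. Amacr, a racemase of branched fatty acids, differed by -1.40, Mrpl47, a protein of the mitochondrial ribosome, by -1.31 and 2010315B03Rik by -1.66. For Cenpa, Bub1, Ndel1, Riok3 and Kif5b the brightest probe set was not called and differed by -0.0714, 0.193, 0.0263, 0.406 and 0.0632. The same held for Cep44 and Mrpl47, whose brightest probe sets differed by -0.20 and -0.01. The leading probe set of Bub1 had a mean of 6.95 over the 18 arrays and its brightest 11.05.

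That pattern was common. Of the 73 called genes, 32 were called on the brightest of their probe sets. The other 41 were represented by a dimmer one, with the brightest called too in 5 and not called in 36, of which 23 had the same sign. At least 2 probe sets were called for 9 of the 73 genes. Over genes, 0.401% had any probe set called and 0.203% their brightest.

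All 97 called probe sets had the same sign in the 3 pairs, but the sizes were unequal. The median absolute difference was 0.873 between Neo/+ and +/-, 0.509 between Neo2/Neo and Neo2/- and 0.918 between Neo/Neo and -/-. The Neo2 pair was the smallest of the 3 at 76 of the 97, and its difference was at the median 0.561 times the mean of the other 2. The pair of homozygotes, where 2 alleles were exchanged, had a larger difference than the wild-type pair, where 1 was, at 55 of the 97, and a smaller one at 42. On a scale where the null mean is 0 and the Neo mean is 1, the median position over the 97 was 1.14 for Neo/+, 0.697 for Neo2/Neo and 1.2 for Neo/Neo. The mean of Neo2/Neo lay between the null mean and the mean of the other 2 Neo genotypes at 84 of the 97. These are descriptions of probe sets chosen on the same arrays by a term shared over the 3 pairs, which favours equal signs. The same shares over all probe sets are not given here. Over all 45037, the Neo2 pair, which holds neither distant array, also had the fewest at an unadjusted p under 0.05 (limma). It had 1497, against 3377 in the wild-type pair and 5834 in the homozygous pair.

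**Figure D2:**
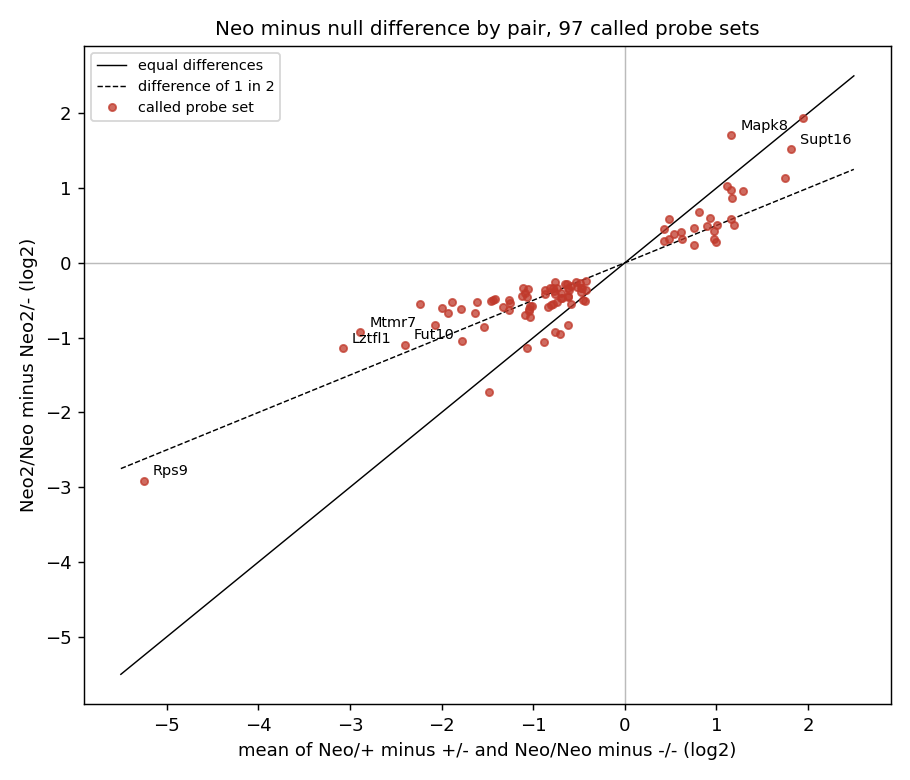
Difference between Neo2/Neo and Neo2/- (y axis, log2) against the mean of the other 2 pair differences (x axis, log2) for the 97 called probe sets, 1 point each. The solid line marks equal differences and the dashed line a Neo2 pair of 1 in 2, and the Neo2 pair has the smallest of the 3 differences at 76 of the 97, as at Lztfl1, with -1.14 against -2.83 and -3.33. The share over all probe sets is not given here.

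Tested one at a time, the pairs gave different numbers of calls. Between Neo/+ and +/-, 40 probe sets were called, 0.0888% of those tested, 7 up and 33 down in Neo/+, and 3377 had an unadjusted p under 0.05. Between Neo/Neo and -/-, 65 were called, 0.144%, 19 up and 46 down in Neo/Neo, and 5834 had an unadjusted p under 0.05. Between Neo2/Neo and Neo2/- the count was 0, which is 0.0%, with 1497 at an unadjusted p under 0.05 (limma for all 3). Of the 97 probe sets, 25 were among the 40 and 27 among the 65. A moderated F-test asked whether the difference itself varied between partners, and it called 0 of 45037 probe sets, while 2087 had an unadjusted p under 0.05. Leaving out the 2 distant arrays gave counts of 63, 263 and 9 in the 3 pairs (wild-type, homozygous and Neo2 partner) and 2 for the variation. The directions among the calls of the homozygous pair moved with these choices. They were 131 up and 132 down without the 2 distant arrays, and 26 up and 15 down with embryo sex as a covariate, where 41 were called. With all 12 arrays the unequal sizes were not called as differences between pairs for any single probe set.

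Lztfl1 led the lower genes between Neo/+ and +/-, at -2.83 with an adjusted p of 0.00209, and between Neo/Neo and -/-, at -3.33 with an adjusted p of 0.00105. Between Neo2/Neo and Neo2/- it differed by -1.14 and was not called. Fut10 and Riok3 followed it in the wild-type pair, at -2.46 and -1.89, and Riok3 and 2010315B03Rik in the homozygous pair, at -1.97 and -2.28. On the higher side the wild-type pair was led by Mcm5, a subunit of the replicative helicase, at 0.90 on a dim probe set, with 2610005L07Rik and 6820431F20Rik after it. The homozygous pair was led by Araf, a RAF-family kinase encoded on the X chromosome, at 1.18, followed by 2610005L07Rik at 1.01 and the atypical cadherin Fat4 at 1.19. Araf differed by 0.47 over the 3 pairs and was not called there, and there the sexes differed between the genotypes. The Neo2 pair had no called gene. Its smallest p belonged to Pcdh9, a protocadherin (0.71), Rab27a, a GTPase of secretory vesicles (0.58), and Mapk8 (1.71) on the higher side, and to Fut10 (-1.09), the ribokinase gene Rbks (-0.83) and Lztfl1 on the lower.

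The smallest p for variation between partners belonged to Prdx2, a peroxiredoxin abundant in red cells, on a dimmer probe set. It was 8.32 and 7.91 in Neo/+ and 8.51 and 7.93 in Neo/Neo, but 10.11 and 10.14 in Neo2/Neo, where the Neo2/- embryos were at 10.15 and 10.13. The other 2 null genotypes lay between 10.27 and 10.84, so the pair differences were -2.60, -0.02 and -2.31, with an adjusted p of 0.598 for their variation. The brightest probe set of Prdx2 was at 12.80 to 12.95 in the Neo embryos and 12.49 to 12.94 in the null embryos. Zfp945, a zinc finger gene, had pair differences of -2.61, -0.40 and -2.30, and Gadd45gip1, which encodes a protein of the mitochondrial ribosome, of -0.93, -0.07 and -1.06. Neither was called over the 3 pairs, with adjusted p of 0.0544 and 0.0964. Lztfl1 and Riok3 were the other 2 of the 5 smallest.

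The 6 embryos with neither allele took no part in the fit, and their levels are set beside the Neo and null means. Among them the Neo2/+ and Neo2/Neo2 embryos carry Neo2. Whether the Neo or the null side departs was not tested. The mean of the 6 embryos was nearer the null mean at 80 of the 97 called probe sets and nearer the Neo mean at 17. The same shares over all probe sets are not given here, so these and the following counts describe the called probe sets only. The median position on the scale above was 0.186 for WT, 0.23 for Neo2/+ and 0.219 for Neo2/Neo2. Single embryos differed by chromosome. WT replicate 1 was nearer the Neo mean at 38 of the 97 probe sets, and these included 15 of the 15 on chromosome 8, and WT replicate 2 at 25, with 11 of the 15. Neo2/+ replicate 1 was nearer the Neo mean at 13 of the 97 and at 0 of the 15, and Neo2/+ replicate 2 at 24 and 8. The Neo2/Neo2 embryos were so at 23 and 26 of the 97, and at 7 and 5 of the 15. Neo2/Neo2 replicate 1 was nearer the Neo mean at 6 of the 10 called probe sets of chromosome 14 and 5 of the 9 of chromosome 18, against 1 of 10 and 4 of 9 for Neo2/Neo2 replicate 2. On chromosomes 9 and 11, 0 to 2 probe sets of 6 and of 10 were nearer the Neo mean in any of the 6 embryos. At chromosome 8 the WT embryos were thus mostly on the Neo side, as at Fut10. Mtmr7 was at 4.90 in WT replicate 1 and at 6.64, a null level, in WT replicate 2.

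**Figure D3:**
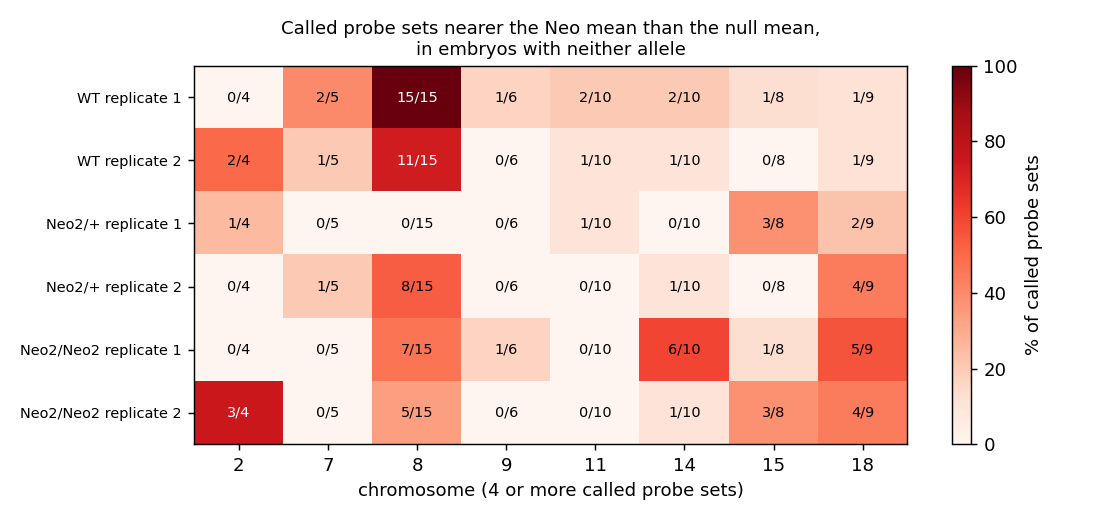
Share of the called probe sets of a chromosome (x axis, chromosomes with at least 4) at which each of the 6 embryos with neither allele (rows) was nearer the Neo mean than the null mean, as colour from 0 to 100% with the counts written in. WT replicate 1 was on the Neo side at 15 of 15 on chromosome 8, and Neo2/Neo2 replicate 1 at 6 of 10 on chromosome 14. Shares over all probe sets are not given here.

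The called genes were unevenly spread over the chromosomes. Of 18027 genes placed in RefSeq order, 73 were called, 0.405%. On chromosome 18 the share was 1.97% (9 of 458), on chromosome 8 1.29% (12 of 932), on chromosome 14 1.25% (8 of 640), on chromosome 15 0.829% (6 of 724) and on chromosome 11 0.624% (9 of 1443). These 5 chromosomes held 44 of the called genes, 60.3%, and 23.3% of the measured genes. Chromosomes 1, 13, 16, 19 and X held 0, and chromosome 16 is that of Tbx1. The order of chromosomes was made after their shares were seen, and no test was made on it.

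Some called genes also lay near each other in gene order. How many of 73 genes placed at random would fall into runs was not determined, so the counts of runs describe positions only. With called genes joined when at most 25 measured genes apart, a distance chosen after the values were seen, 14 runs held 41 of the 73. At a distance of at most 10 genes 12 runs held 27, and at most 50 genes 13 runs held 50. The longest run lay on chromosome 14 and held Socs4, Dlgap5, ccdc198, Ttc5, Ccnb1ip1, Ang and Supt16, which are 7 called genes among 48 measured. The first 3 and Ang were lower, and Ttc5, Ccnb1ip1 and Supt16 were higher. Directions given for the runs are those of the called probe sets, and other probe sets of a gene could differ in sign. On chromosome 8 Sfrp1, an antagonist of Wnt signalling, Tm2d2, Hgsnat, a lysosomal enzyme, Tti2 and Fut10 were lower within 54 measured genes. On chromosome 18 Kif5b, Esco1 and Riok3 were lower within 27 genes, and Redrum, Minar2, Dctn4, a dynactin subunit, and 1500015A07Rik within 47. On chromosome 9 Lars2, the mitochondrial leucyl-tRNA synthetase, Lztfl1 and 2010315B03Rik were lower within 15. Of the 254 genes not called within the 14 runs, 58.3% lay below 0, against 55.7% of the 17954 placed genes that were not called. In the run of chromosome 14 the 41 genes not called had a median difference of -0.0156, with 22 below 0, and in that of chromosome 8 the 49 not called had a median of -0.0292, with 29 below 0. The lowest median was that of the chromosome 3 run of Mrpl47, Mccc1 and Spata5, all lower, where 19 of the 28 genes not called lay below 0 with a median of -0.0946. In the chromosome 9 run 8 of the 12 did, with a median of -0.0118.

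**Figure D4:**
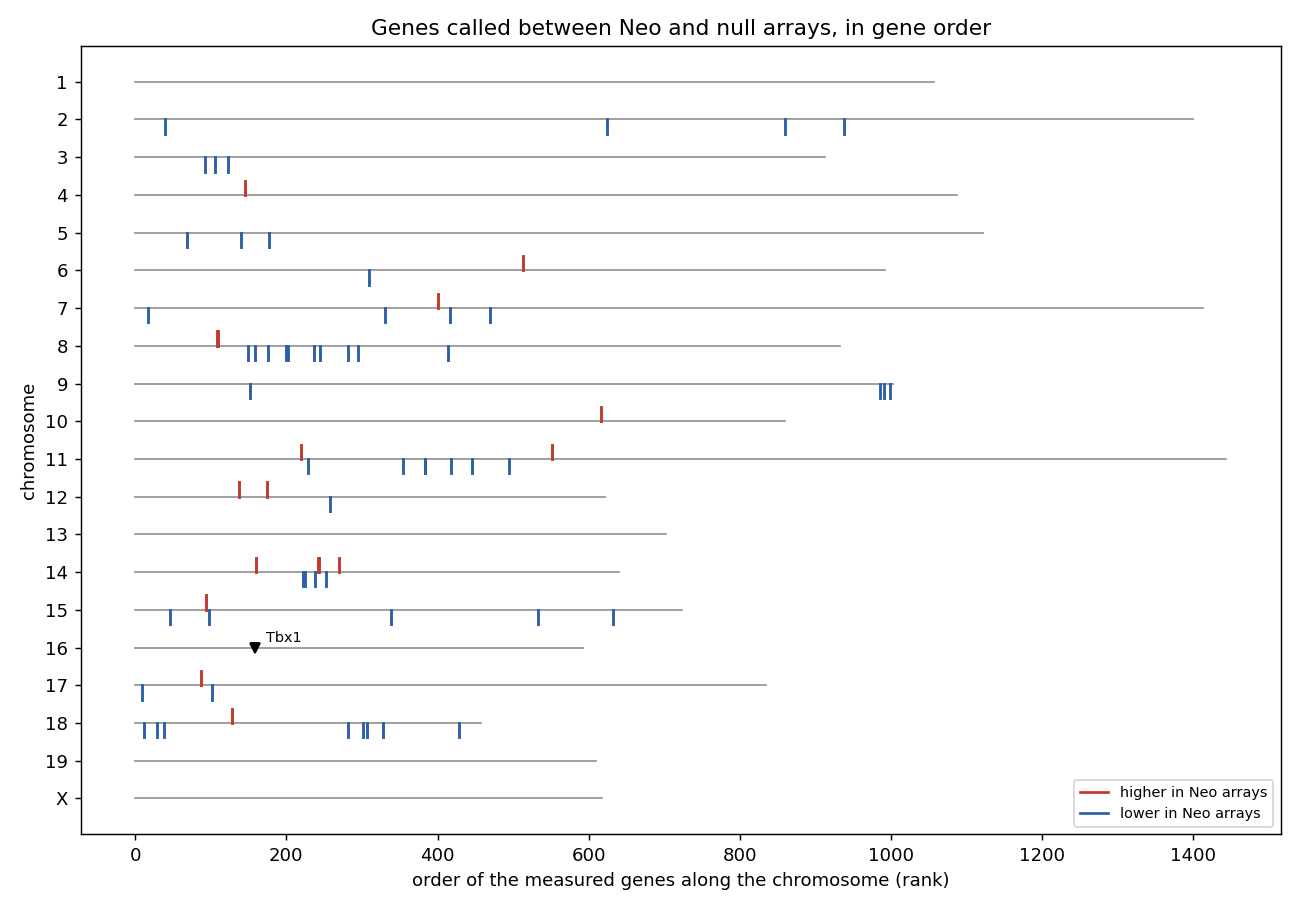
The 73 called genes along the 19 autosomes and X (rows), with the x axis giving the rank of each measured gene in RefSeq order. Upward marks are genes higher and downward marks genes lower in the Neo embryos, and chromosome 16, with Tbx1 marked, holds none, while chromosomes 18, 8 and 14 hold 9, 12 and 8.

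The lists of genes for the tissues that depend on Tbx1 held no called member, which at these list sizes does not set them apart from all genes. Of the 29 measured genes linked to Tbx1 in the literature 0 were called, with a median of 0.0271, where 0.203% of all genes were called on their brightest probe set and the median was -0.0166. Pax9, a pouch endoderm factor, differed by -0.23 with an adjusted p of 0.233, and Slit2, a guidance ligand, by 0.52 with an adjusted p of 0.263. Of the 14 measured genes of pharyngeal endoderm and pouches and the 18 of second heart field 0 were called, with medians of 0.0082 and 0.00523, and Bmp4, a secreted growth factor, differed by 0.30. Cranial mesoderm and branchiomeric muscle (11 genes), otic vesicle (14), neural crest (19), cardiomyocytes (20) and endothelium (18) also held 0 called, with medians between -0.0424 and 0.0604. Members at an unadjusted p under 0.05 numbered 4 of 29, 2 of 14, 2 of 18, 2 of 11, 0 of 14, 3 of 19, 4 of 20 and 0 of 18 in these 8 lists, in that order, where 11.1% of all genes, 2014 of 18193, had such a p (limma).

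Outside those tissues, 4 lists held a member called on its brightest probe set, where 0.203% of all genes were. Their medians were 0.0839 for macrophages and platelets (12 of 21 above 0) and 0.0118 for cell cycle (17 of 31). They were -0.069 for interferon genes (5 of 17) and 0.209 for imprinted genes (17 of 22), the latter 0.0671 without the 2 distant arrays. The called members of the macrophage and imprinted lists thus differed in the direction opposite to their list's median. Csf2rb, the common beta chain of cytokine receptors, was the 1 of 21 macrophage and platelet genes called, at -0.79 with an SE of 0.10 and an adjusted p of 0.0172. It was 5.54 to 6.65 in the Neo embryos and 6.48 to 7.40 in the null embryos, and its relative Csf2rb2, close by on chromosome 15, differed by -0.48 and was not called. Pttg1 was the 1 of 31 cell cycle genes, while 3 of the 31 had any probe set called, where 0.401% of all genes did. Bst2, an antiviral membrane protein, was the 1 of 17 interferon genes, at -0.49 with an adjusted p of 0.0279. Sfmbt2, an imprinted Polycomb gene, was the 1 of 22 imprinted genes, at -0.46 with an adjusted p of 0.0279. The genes Pttg1, Csf2rb, Lztfl1, Lars2, Ndel1, Mapk8, Prdx2 and Ang had been noticed in these data earlier, so that naming them adds no independent weight.

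The 20 neuron genes had the highest list median, 0.376, and all 20 lay above 0, with 0 called and 6 at an unadjusted p under 0.05. Ina, a neurofilament protein, differed by 0.67, Map2, a dendritic microtubule protein, by 0.60, Elavl3, a neuronal RNA-binding protein, by 0.53 and Chl1, an adhesion molecule, by 0.40. The list's median was 0.0203 in the wild-type pair, 0.715 in the Neo2 pair and 0.47 in the homozygous pair. Its mean level ranged from 7.61 to 8.99 over the Neo arrays and from 7.46 to 8.61 over the null arrays, which overlap widely. At the low end were the 22 genes of presomitic mesoderm and somites, with a median of -0.181, 6 above 0, 0 called and 7 at an unadjusted p under 0.05, and the 15 posterior Hox genes, with a median of -0.159, 2 above 0 and 0 called. Meox1, a somite factor, differed by -0.59, Cdx1, a regulator of axial patterning, by -0.56 and Hes7, the oscillator of the segmentation clock, by -0.36. Without the 2 distant arrays the medians were 0.582 for neurons, -0.275 for presomitic mesoderm and -0.158 for posterior Hox genes, and Hes7 was called, with an adjusted p of 0.047. The labels give the embryonic day and no somite count, and the part of stage within the day in these values was not tested.

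**Figure D5:**
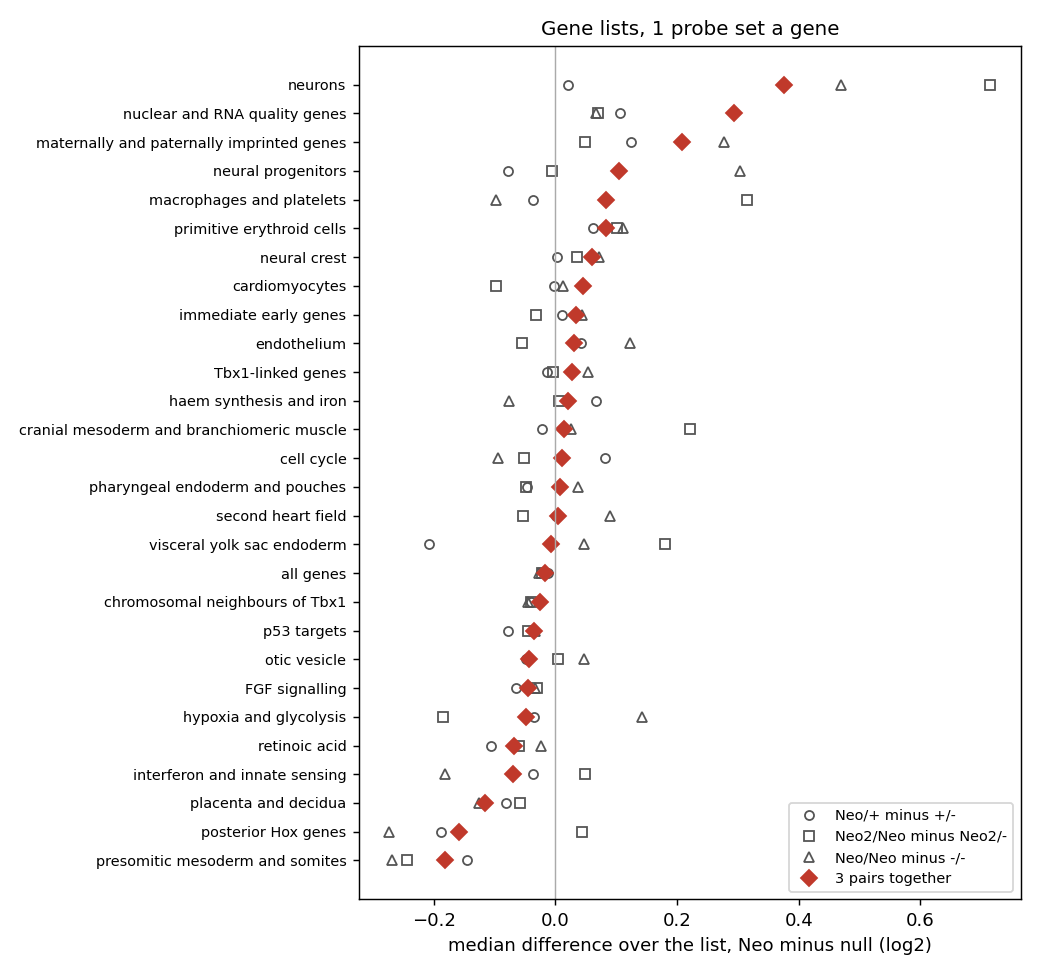
Median Neo minus null difference of each gene list (x axis, log2, 1 probe set a gene), with filled diamonds for the 3 pairs together and open symbols for each pair. Neurons stand at 0.376 but at 0.0203 in the pair of Neo/+ and +/-, and most lists lie within 0.1 of 0.

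Markers of RNA quality moved with the 2 distant arrays. The median of 13 nuclear and RNA quality genes was 0.294 with all 12 arrays and -0.00965 without those 2. Malat1, an abundant nuclear RNA, was at 12.21 to 12.61 in the Neo embryos and 8.29 to 12.36 in the null embryos, with a difference of 1.00 that was 0.47 without the 2. The 20 genes of visceral yolk sac endoderm had 0 called and a median of -0.00748, with Afp, the fetal albumin-like protein of yolk sac, at 8.06 to 11.40 and 8.56 to 10.38. The 12 genes of placenta and decidua had 0 called and a median of -0.115, and the 21 of primitive erythroid cells 0 called and 0.0825.

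Without +/- replicate 1 and -/- replicate 1, 460 probe sets were called, 1.02% of those tested, 231 higher and 229 lower, and 94 of the 97 were among them with the same sign. The 3 that were not were those of Rps9 and Hspb6 (adjusted p of 0.0587 and 0.0502) and a dimmer one of 2610005L07Rik. With the sex of the embryo as a covariate 14 of the 97 remained called and no other, and with both changes 139 were called, 64 higher and 75 lower, of which 47 were among the 97. The direction of the 30 genes with the largest differences was the same under all 29 alternatives in which they were measured, while their calls were not. These genes were chosen by their differences on the same arrays, which the alternatives reuse, so a kept direction was largely fixed in advance. Without Neo/Neo replicate 2 alone, 3 of the 30 stayed called, and 7 probe sets in all.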

How the data were processed

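Whole-embryo RNA of 18 embryos was hybridised to 1 array each. The deposited values are log2 signals per probe set, and the submitters' processing notes name affy and RMA as the authors' tools. RMA subtracts background, equalises the distributions of the arrays and summarises the probes of a set, so a change shared by most probe sets would be removed. Tool versions and filters: not given in the sources used here. RMA values have no detection call. All 45037 probe sets were used as deposited. The annotation gave 1 gene symbol to 34945, several to 932 and none to 9160, and 34741 matched a RefSeq gene of mouse assembly GRCm38.p6, which was used for names, gene order and promoter windows only, since the position of the probes was not used here.

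Tests used limma 3.58.1 (lmFit and eBayes, two-sided) under R 4.3.3. The main fit had partner and allele as terms on 12 arrays, with 8 residual and 3.11 prior degrees of freedom. The 3 pairs and their variation were tested in a fit of 6 genotype means. Calls were made at 0.05 after Benjamini-Hochberg adjustment across the 45037 probe sets, and every adjusted p is limma's. A gene with several probe sets was represented by the brightest (by its mean on 18 arrays) in lists, and along chromosomes a gene counted as called where any of its probe sets was. The fit was tested on simulated data. The number of arrays limits the precision.

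The genes named are up to 15 per direction with the largest difference among called probe sets with 1 symbol, the 3 with the smallest p per direction in each pair, the 5 with the smallest p for variation between partners, up to 4 members per list, Tbx1 with its nearest measured neighbours, and genes noticed earlier. Sex markers are never named. Rnase4 and the genes of the runs were named after their values were seen. The comparison, the 27 gene lists and the rule were chosen with earlier results of these data known. The alternatives were another design, other array sets, covariates, filters and each array left out.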

Additional observations from a re-analysis of the deposited data

Results flagged for a closer look

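Within each group of 6 arrays, the signal of each of the 30 genes with the largest differences was checked for a single array far from the other 5. Of 60 such groups, 6 had one. The rate by chance is about 1 in 20 for independent groups of unselected genes. These groups share the same arrays and their genes were chosen on them, so that rate does not apply here. Among the null embryos, Supt16 was at 9.29 on +/- replicate 1, with the other 5 at 7.52 to 7.81. Pttg1 was at 10.7 on -/- replicate 1, with the others at 9.2 to 9.52. Amacr was at 6.49 on -/- replicate 1, with the others at 7.1 to 7.44. Mrpl47 was at 6.62 on +/- replicate 1, with the others at 5.96 to 6.17. Ang was at 6.73 on -/- replicate 1, with the others at 6.02 to 6.23. All 5 of these lay on the 2 arrays that stood apart over all probe sets. Supt16, Pttg1 and Amacr were shifted towards the Neo embryos there and Mrpl47 and Ang away from them. Among the Neo embryos, Rps9 was at 12.2 on Neo2/Neo replicate 2, with the others at 6.83 to 7.63. The part of RNA quality in these values was not tested.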

How the results depend on the processing

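The 97 calls became 172 with 6 genotype means, 448 with 9 genotype means over 18 arrays, 219 per Neo allele, 460 without the 2 distant arrays, 430 with array weights, 39 with 1 probe set per gene, which tests fewer probe sets, and 14 with embryo sex as a covariate. They became 7 without the Neo/+ and +/- pair and 1 without the Neo/Neo and -/- pair, with fewer arrays. Leaving out 1 array each gave 7 (Neo/Neo replicate 2) to 154 calls (-/- replicate 1), with 10 or 11 without Neo/Neo replicate 1, Neo/+ replicate 1 or +/- replicate 2, 18 without Neo/+ replicate 2, 24 without -/- replicate 2 and 60 without Neo2/Neo replicate 1. The fit without the 2 arrays and with sex, which gave 139 calls, was chosen after seeing the data. No partner matching, intensity trend, robust prior, the dimmest probe sets left out and centring gave 78 to 110. For Tbx1 the difference of -0.02 was 0.0151 without the 2 arrays, 6.5e-05 without the Neo/+ and +/- pair, 0.0255 with array weights and 0.0106 without the 2 arrays and with sex. It was between -0.0774 and 0.0414 with 1 array left out. None was called.

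The replicate block gave 81 calls in place of 97, with 73 shared, 25 in place of 40 in the wild-type pair and 51 in place of 65 in the homozygous pair. The deviations of the replicate 1 arrays correlated between genotypes from -0.262 to 0.186. With 2 arrays a genotype this cannot tell whether the numbers mark a shared litter or batch, and the labels give neither. For Neo/+ against +/-, the 40 calls were 63 without the 2 arrays and 7 (without Neo/+ replicate 1) to 5058 (without +/- replicate 2, which leaves a distant array alone) with 1 array left out. For Neo/Neo against -/-, the 65 were 228 over 18 arrays, 263 without the 2 arrays, 41 with sex and 1 (without Neo/Neo replicate 2) to 3566 (without -/- replicate 2). For Neo2/Neo against Neo2/-, the 0 was 9 without the 2 arrays and 0 to 1 with 1 array left out. For variation between partners, the 0 was 2 without the 2 arrays and 0 to 2766 with 1 array left out, the highest without +/- replicate 2. An array left alone in its genotype is taken to vary like the others. Of 849 recomputed values of the 30 leading genes, 502 stayed called, 347 were no longer called and 0 changed sign. The genes were chosen on the same arrays, which favours a kept sign. Where counts moved, the cause was not tested unless stated.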
